A study of Mus musculus with 6 samples.

Results

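Marker genes of blood vessels were read on 6 Affymetrix mouse arrays, 3 of a vector control and 3 with miR-34a. The genes were chosen by name, 26 for the endothelium, the inner lining of vessels, and 9 for mural cells, the pericytes and smooth muscle cells that wrap it. Of these 35 genes 34 were measured, 25 endothelial and all 9 mural, among 12393 genes in all; Mmrn2 had no probe set of its own. Each gene is given by its brightest probe set that is annotated to that gene alone. Both groups derive from 344SQ, a metastatic mouse lung cancer line with high Zeb1. The control carried the empty vector, and the other group expressed miR-34a from an inducible construct; the labels name neither the inducer and its timing nor the strain and age of any host mouse. The design text speaks of RNA from primary tumours of injected mice and the miR-34a titles of tumours, while the other labels speak of cells in culture. Both arms use a single cell line, and nothing in the labels ties a replicate to its own mouse or culture. The p-values therefore set the group difference only against how far these samples vary, and that variation may be technical.

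Endothelial cells respond to VEGF through the receptor kinases Kdr, Flt1 and Flt4, and vessels mature through the Tie receptors, with Angpt1 from mural cells activating Tek and Angpt2 from endothelium acting mostly against it. ETS factors such as Erg and Fli1 and the SOXF factors Sox17 and Sox18 maintain endothelial identity. Pericytes carry Pdgfrb, Rgs5, Cspg4 and the potassium channel made of Kcnj8 and Abcc9, and smooth muscle contracts with Acta2 and Myh11 under the control of serum response factor and its partner Myocd. Several of these genes are active outside vessels as well: Acta2 in activated fibroblasts, Des in skeletal muscle, Lyve1 in some macrophages and Cd34 in blood progenitors.

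The microRNA that was expressed and the promoters of 5 members described below are shown for reference. Seed sites in the members' transcripts were not examined. The mature microRNA from RefSeq (GRCm38.p6) is given with its seed, bases 2 to 8, in capitals. Flt4 and Abcc9 are the members that passed the test, Kcnj8 is the neighbouring gene that encodes the channel partner of Abcc9, Emcn was lower on every miR-34a array, and Acta2 had the highest change. The promoter windows are the 250 bases before the RefSeq start site, read 5′ to 3′ along the gene.
mmu-miR-34a-5p: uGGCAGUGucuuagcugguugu
Flt4 (chr11:49609429-49609678, plus strand): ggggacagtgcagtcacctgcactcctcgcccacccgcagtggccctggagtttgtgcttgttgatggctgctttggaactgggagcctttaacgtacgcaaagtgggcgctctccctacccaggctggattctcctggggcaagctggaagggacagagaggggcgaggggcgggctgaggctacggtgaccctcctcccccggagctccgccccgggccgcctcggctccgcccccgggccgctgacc
Emcn (chr3:137340828-137341077, plus strand): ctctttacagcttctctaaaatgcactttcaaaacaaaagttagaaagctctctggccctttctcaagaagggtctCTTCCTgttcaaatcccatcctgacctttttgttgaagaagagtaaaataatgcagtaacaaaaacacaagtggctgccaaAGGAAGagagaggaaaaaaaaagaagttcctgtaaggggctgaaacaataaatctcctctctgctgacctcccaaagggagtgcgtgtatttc
Abcc9 (chr6:142702275-142702524, minus strand): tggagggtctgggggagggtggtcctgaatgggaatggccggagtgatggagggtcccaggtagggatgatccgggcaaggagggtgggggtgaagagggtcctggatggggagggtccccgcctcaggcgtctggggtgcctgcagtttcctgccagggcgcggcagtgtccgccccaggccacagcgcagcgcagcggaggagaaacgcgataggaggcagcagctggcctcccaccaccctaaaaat
Kcnj8 (chr6:142571615-142571864, minus strand): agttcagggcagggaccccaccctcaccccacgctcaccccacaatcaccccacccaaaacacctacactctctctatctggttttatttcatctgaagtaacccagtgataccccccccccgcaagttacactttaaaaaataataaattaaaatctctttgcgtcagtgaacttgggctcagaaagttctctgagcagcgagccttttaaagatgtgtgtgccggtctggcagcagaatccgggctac
Acta2 (chr19:34255374-34255623, minus strand): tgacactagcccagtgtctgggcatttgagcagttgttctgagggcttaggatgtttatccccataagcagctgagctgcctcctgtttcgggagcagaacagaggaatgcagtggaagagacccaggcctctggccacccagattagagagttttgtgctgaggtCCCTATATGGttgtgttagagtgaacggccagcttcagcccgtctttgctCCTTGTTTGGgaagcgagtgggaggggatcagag

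Capitals in the promoters mark matches to either of a pair of motifs, both searched on both strands. AGGAAG is a form of the ETS site, and the CArG box, which binds serum response factor, was read as CC, then 6 bases of which at least 5 were A or T, then GG. RefSeq windows were found for 20 members, 13 endothelial and 7 mural. AGGAAG occurred in 8 of the 13 endothelial members, Flt1, Tie1, Eng, Emcn, Egfl7, Erg, Robo4 and Cd34, in 0 of the 7 mural members and in 29.5% of all 32851 windows. Egfl7, Erg and Prox1 have several windows in that table, and a match in any of them was counted. For both motifs the members are thus counted by gene and the background by window, so these shares are not like for like. A CArG-like match occurred in 8.59% of all windows and in 4 members, Kdr, Eng, Egfl7 and Acta2. The Acta2 promoter held 2, starting 84 and 34 bases before the start site, and the Emcn promoter held 2 AGGAAG matches, starting 174 and 93 bases before it. Matches of the motifs did not overlap each other. A match is a string of letters and was not tested for binding.

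The arrays did not all lie close to their group. Vector 1 was the most distant, scoring -43.33 on a first component with 61% of the variance of all genes, where the other vector arrays scored -5.42 and -8.75 and the miR-34a arrays 16.25 to 21.66. Of 8 genes for the tumour line, 6, among them Zeb1, Vim, Cdh1, Krt8 and Krt18, lay above the median level of all genes, and the lung lineage genes Nkx2-1 and Sftpc lay below it. Of the members, 11 endothelial and 3 mural genes lay above that median. Without detection calls, background and a low level cannot be told apart. In bulk RNA, fewer cells of a type and less RNA per cell cannot be told apart.

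Of the 25 endothelial genes 1, the lymphatic VEGF receptor gene Flt4, passed as higher in the miR-34a arrays, by 1.24-fold, and 0 passed as lower (limma, adjusted p under 0.05 over all genes, adjusted by Benjamini-Hochberg; 6 endothelial genes, and 28.2% of all genes, had an unadjusted p under 0.05). Among all genes 11.7% passed, 6.5% as higher and 5.25% as lower. Changes here are miR-34a minus vector on the scale of log2(intensity + 16), as are the folds, which understates the change of dim genes. Of the endothelial genes 18 had a change above 0 and 7 below, where 54.3% of all genes had a change above 0. The median change was 0.11, against 0.024 for all genes. Without vector 1, 15 of the 25 and 7454 of all 12393 genes had a change above 0, shares that are close to each other, and the median was 0.06 against 0.05 for all genes. The miR-34a values all lay above the vector values in 6 endothelial genes (20.8% of all genes) and all below in 2 (14% of all genes), so that 8 of 25 did not overlap, against 34.9% of all genes. The change in single endothelial genes ran from -0.28 for Pecam1 to 0.64 for Ptprb.

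**Figure D1:**
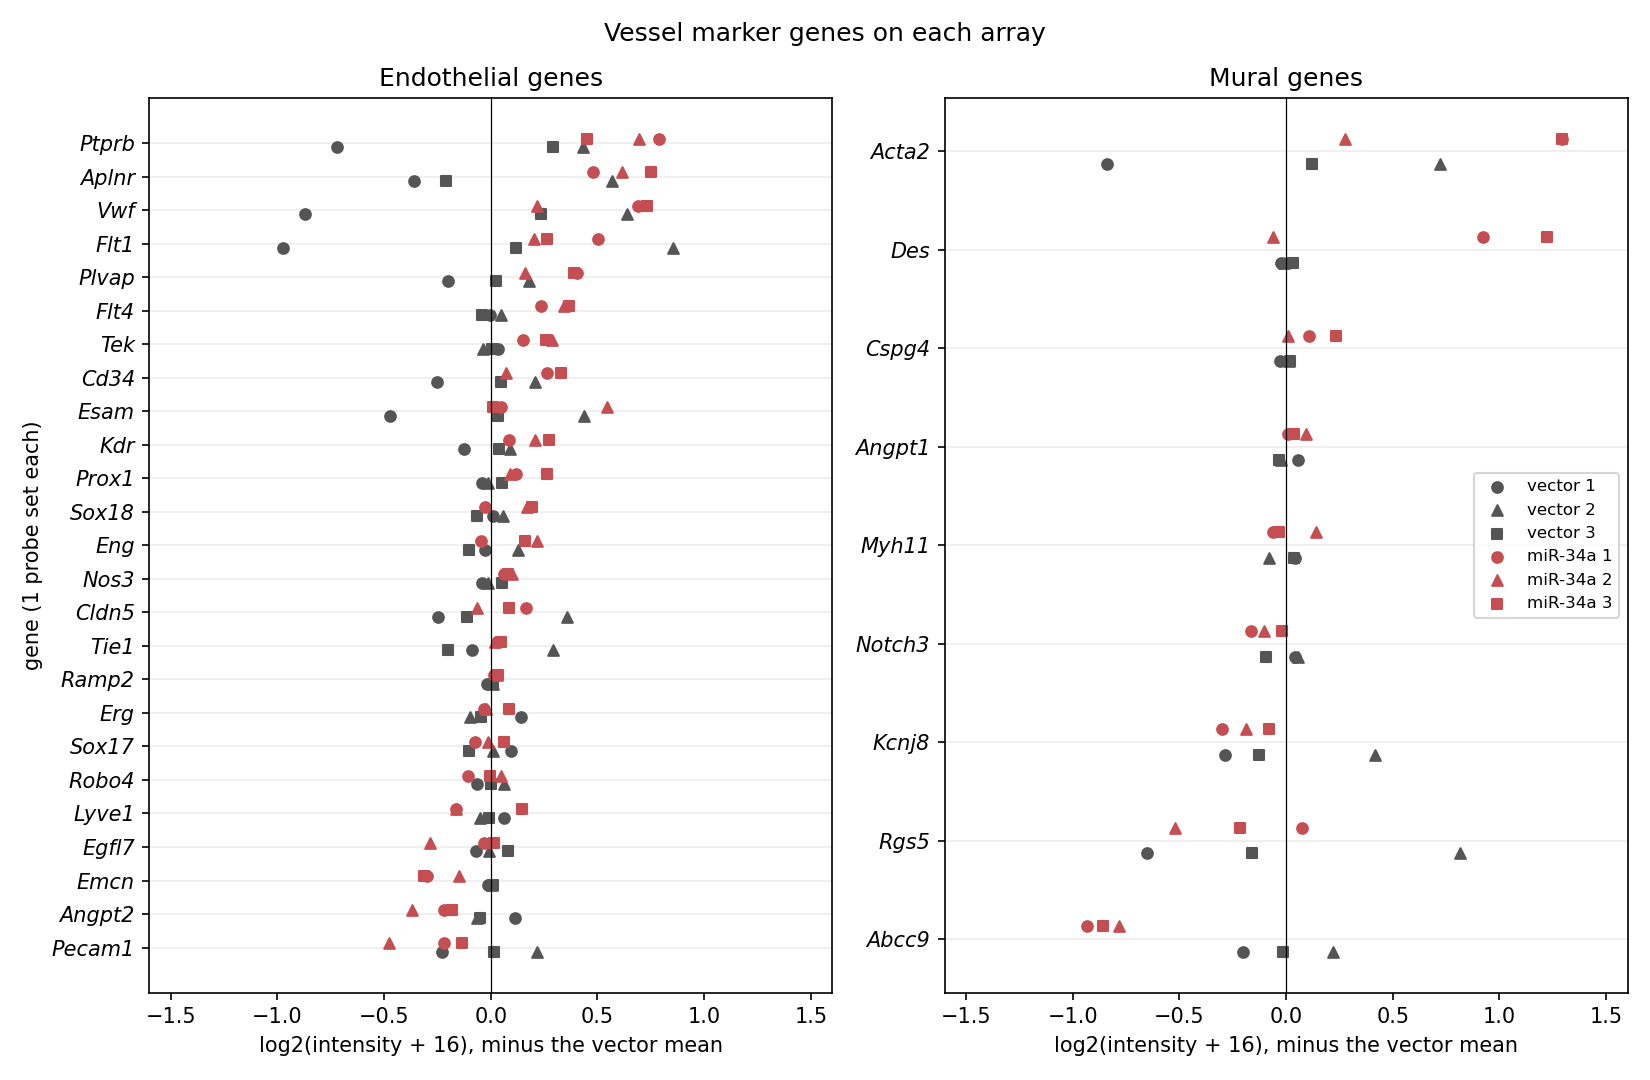
Each point is 1 array; the horizontal axis is log2(intensity + 16) minus the mean of the 3 vector arrays, with vector arrays in grey, miR-34a arrays in red and replicates 1, 2 and 3 as circle, triangle and square. Vector 1 lies far to the left for Flt1, Vwf, Ptprb and Acta2, the miR-34a arrays of Abcc9 lie together on the left, and Des is spread over the miR-34a arrays and not over the vector arrays.

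Among the VEGF receptors, Flt4 had intensities of 978, 1016 and 953 in vector and 1157, 1251 and 1273 in miR-34a arrays. The groups did not overlap, and each was narrow. The change was 0.32 ± 0.079 (SE; limma adjusted p = 0.0453). When 1 array was left out the change ran from 0.29 to 0.36, with an adjusted p of 0.0499 without vector 1 and of 0.0675 to 0.167 in the other 5 fits, and it missed the threshold with 1 in place of 16 added before the log (0.0509), with a variance trend (0.0533) and with the mean of both its probe sets (0.101). The second Flt4 probe set, with values of 177 to 232, differed by 0.12. Kdr, the main VEGF receptor of blood endothelium, had 645, 752 and 725 in vector and 749, 818 and 855 in miR-34a arrays, a change of 0.19 with a 95% interval from -0.03 to 0.41. Flt1, the high-affinity receptor that also acts as a VEGF trap, had 764, 2752 and 1648 in vector and 2155, 1748 and 1820 in miR-34a arrays. The vector arrays of Flt1 spanned 1.83 log2 units and enclosed all the miR-34a arrays, which spanned 0.30. Its change of 0.32 had an interval from -0.64 to 1.29 and was -0.16 without vector 1, and its other probe sets differed by 0.21 and -0.24.

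In the Tie system the receptor gene Tek had 156, 148 and 153 in vector and 171, 190 and 185 in miR-34a arrays. All miR-34a values were higher, by 0.23 ± 0.0781 (SE), and the gene did not pass (limma adjusted p = 0.102). Tie1, the partner receptor, had a change of 0.03, with an interval from -0.28 to 0.34. Ptprb, the endothelial phosphatase that dampens Tek signalling, had 709, 1599 and 1446 in vector and 2049.6, 1921 and 1617 in miR-34a arrays. Here too the groups did not overlap, but vector 1 lay 1.08 log2 units below the mean of the other vector arrays. The change of 0.64 ± 0.291 (SE; limma adjusted p = 0.202) was 0.28 without vector 1. Angpt2, the ligand that endothelium releases when vessels remodel, had 305, 268 and 271 in vector and 239, 214 and 246 in miR-34a arrays. Each miR-34a value lay below each vector value, with a change of -0.26 ± 0.0922 (SE; limma adjusted p = 0.119). Angpt1, counted with the mural genes, was measured at 83 to 92 on all 6 arrays and differed by 0.05.

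Of 11 genes of the cell surface and junctions, 0 passed the limma test and 3 had an unadjusted p under 0.05. Among all genes these shares were 11.7% and 28.2%. Emcn, the endomucin sialoglycoprotein of capillaries and veins, had 752, 764 and 765 in vector and 615, 684 and 609.7 in miR-34a arrays. Every miR-34a value lay below every vector value, with a change of -0.25, an interval from -0.44 to -0.06 and a limma adjusted p of 0.088, and the change stayed between -0.31 and -0.22 whichever array was left out. Aplnr, the receptor for apelin, had 773, 1482 and 858 in vector and 1394, 1533 and 1687 in miR-34a arrays. Vector 2 lay among the miR-34a arrays, and the change of 0.62 ± 0.234 (SE; limma adjusted p = 0.138) became 0.90 without it, with an adjusted p of 0.0161. The second Aplnr probe set gave 388, 318 and 334 against 401, 561 and 441, with no overlap and a change of 0.41. Plvap, which forms the diaphragms of fenestrated capillaries, had 725, 949 and 849 against 1113, 938 and 1102, an overlap of a single pair of arrays and a change of 0.32. Pecam1, the platelet endothelial adhesion molecule, had 209, 290 and 250.1 against 211, 173 and 224, and its change of -0.28 had an interval from -0.61 to 0.06.

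The remaining surface genes showed smaller changes. Esam and Cldn5, both of endothelial junctions, differed by 0.20 and 0.06, with vector 1 the lowest array for each. Cd34, a sialomucin, differed by 0.22 and Eng, a coreceptor for TGF-beta and BMP ligands, by 0.11. The receptor gene Robo4 and the lymphatic hyaluronan receptor gene Lyve1 differed by -0.02 and -0.06. Ramp2, a part of the receptor for adrenomedullin, was steady, with 572, 583 and 583 in vector and 584, 592 and 593 in miR-34a arrays. Its groups lay side by side with no overlap, and the change of 0.03 had an interval from -0.14 to 0.19 and turned its sign under quantile normalization.

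The transcription factor genes Erg, Sox17 and Sox18 showed little movement between the groups, with Erg and Sox17 below the median level of all genes. Erg differed by 0.01, Sox17 by -0.01 and Sox18 by 0.11, with intervals that reached no further than -0.21 and 0.33. A second Sox17 probe set also differed by -0.01. It was spread in vector, with 118, 295 and 174 against 193, 178 and 175 in miR-34a arrays. Prox1, the lymphatic regulator, had 6.75, 7.15 and 8.26 in vector and 9.38, 8.86 and 12.05 in miR-34a arrays. These are near the lowest value in the table, 1, so that the change of 0.16 depends on the 16 added before the log. Among secreted proteins and enzymes, Vwf, the clotting glycoprotein that endothelium stores, had 114, 353 and 263 in vector and 367, 260 and 378 in miR-34a arrays. Vector 1 was lowest by 1.31 log2 units against the mean of the other vector arrays, and the change of 0.54 ± 0.367 (SE; limma adjusted p = 0.386) was 0.11 without it. Nos3, the endothelial nitric oxide synthase, had 417, 426 and 446 in vector and 449, 461 and 455 in miR-34a arrays. Its groups just failed to overlap, and its change was 0.08. Egfl7, a secreted factor of growing vessels, differed by -0.10.

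**Figure D2:**
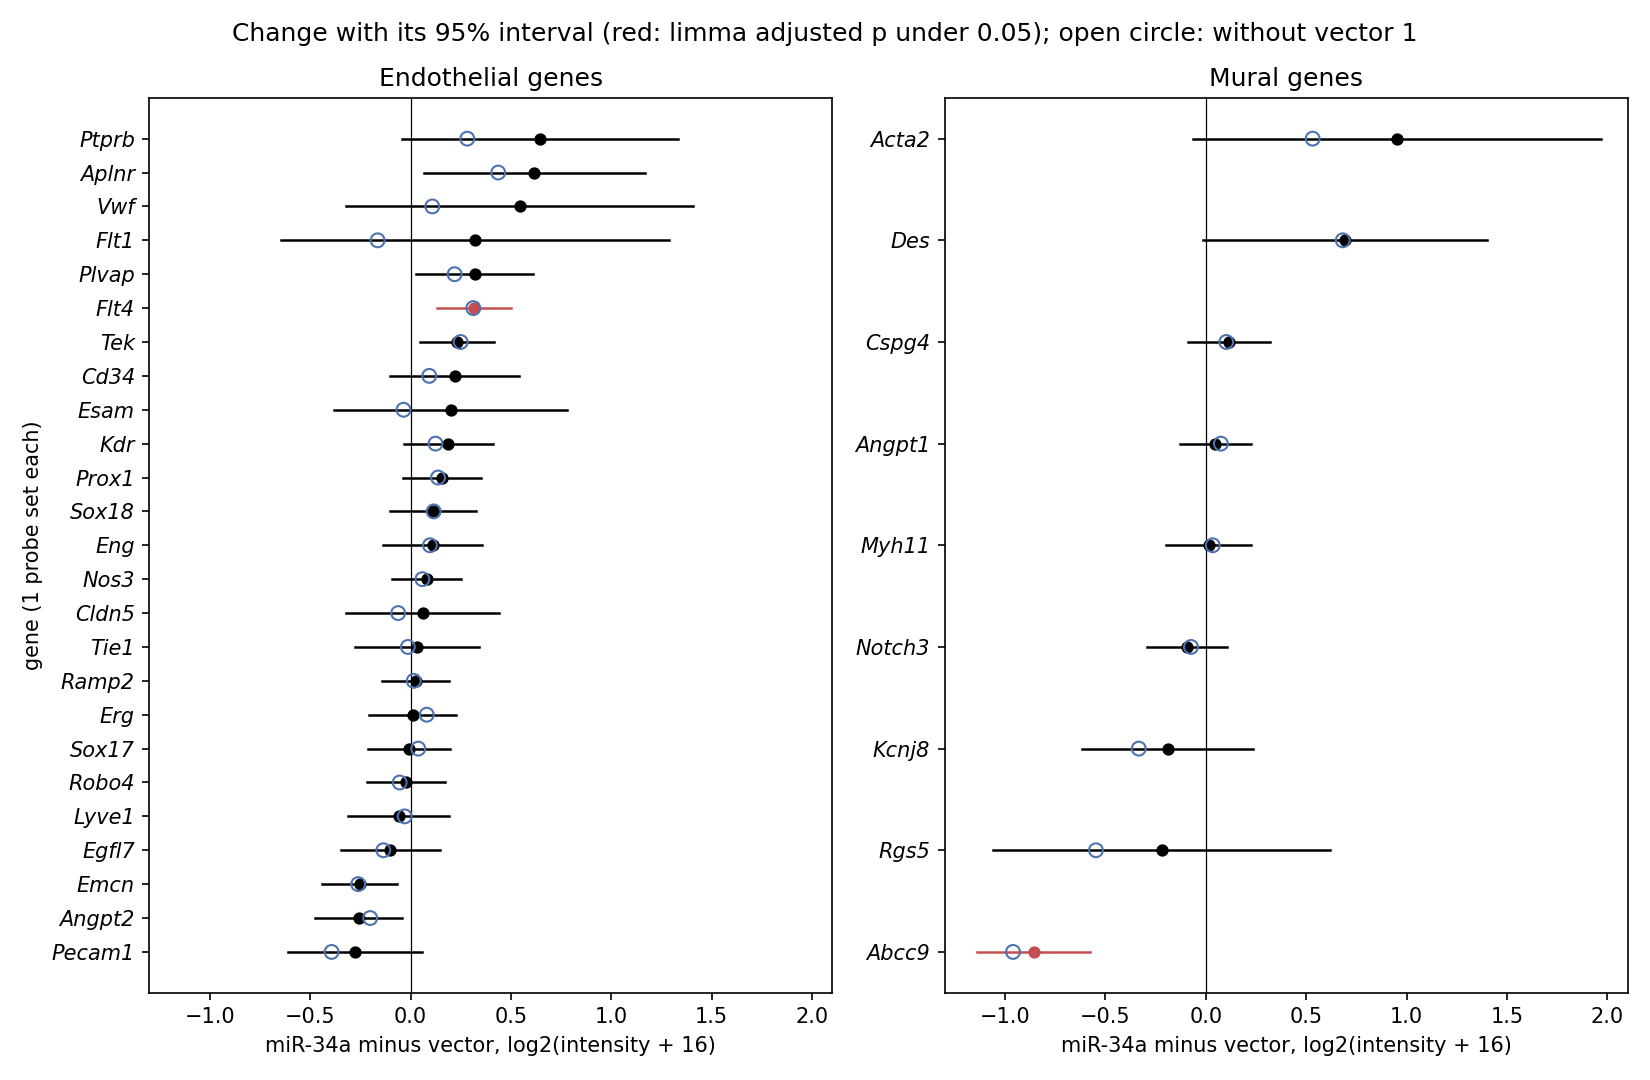
Points are the change from vector to miR-34a in log2(intensity + 16), bars its 95% interval from limma, red marks an adjusted p under 0.05, and open circles give the change with vector 1 left out. Flt4 and Abcc9 are the 2 genes in red; open circles of Flt1, Ptprb, Vwf and Acta2 lie well to the left of their points.

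Of the 9 mural genes 1, Abcc9, passed, and it was lower in the miR-34a arrays by 1.81-fold; 0 passed as higher (limma; 1 mural gene had an unadjusted p under 0.05). That is 11.1% of the mural genes, near the 11.7% of all genes that passed. Changes of the mural genes were split, 5 above 0 and 4 below, where 54.3% of all genes lay above 0. Their median of 0.01 was below 0 under median centring, with array weights and without miR-34a 2. Abcc9 was also the single mural gene whose groups did not overlap, against 34.9% of all genes. The change ran from -0.86 for Abcc9 to 0.95 for Acta2.

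Abcc9 encodes the sulfonylurea receptor subunit of the potassium channel of pericytes and smooth muscle. Its intensities were 154, 212 and 178 in vector and 87, 98 and 92 in miR-34a arrays. Every miR-34a array lay below every vector array, and vector 1, which was low for many members, was the lowest vector array here too. The change was -0.86 ± 0.119 (SE; limma adjusted p = 0.00916). It was -0.96 without vector 1 and ran from -0.96 to -0.75 over the 6 fits that left out 1 array; the adjusted p rose to 0.0552 when miR-34a 1 was left out and to 0.0532 when miR-34a 3 was. The level of Abcc9 was below the median of all genes, and 1 probe set measured it. Kcnj8, the gene next to Abcc9 among protein-coding genes and the pore subunit of the same channel, had 404, 669.6 and 454 in vector and 401.5, 434 and 469.6 in miR-34a arrays. Its groups overlapped, with vector 2 above the rest, and the change of -0.19 had an interval from -0.62 to 0.24.

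The other pericyte genes did not pass. Rgs5, a regulator of G protein signalling and a common pericyte marker, had 503, 1421 and 714 in vector and 843, 553 and 688 in miR-34a arrays. The spread within vector, 1.47 log2 units, exceeded the change of -0.22, which was -0.55 without vector 1. Its 3 other probe sets differed by 0.07, 0.12 and -0.27. Cspg4, the NG2 proteoglycan, differed by 0.12 in its brightest probe set and by 0.60 in the other, where vector 1 had 152 against 377 and 383 in the other vector arrays and 401 to 462 in miR-34a arrays. Notch3, the Notch receptor of mural cells, differed by -0.09.

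Of the genes of contraction and filaments, Acta2 varied widely within both groups and Des within the miR-34a arrays, while Myh11 did not. Acta2, smooth muscle actin, had 557, 1674 and 1101 in vector and 2499.6, 1224 and 2495 in miR-34a arrays. miR-34a 1 and miR-34a 3 were the highest arrays, and miR-34a 2 lay within the vector range. The change of 0.95 ± 0.431 (SE; limma adjusted p = 0.202) was 0.53 without vector 1 and 1.29 without miR-34a 2. Actin genes are close in sequence and the name of this probe set ends in _s_at, a class whose probes can match several transcripts, so its value is uncertain as a measure of Acta2 alone; a dimmer Acta2 probe set differed by -0.15. Des, the desmin filament of muscle and pericytes, had 384, 388 and 399 in vector and 753, 373 and 932 in miR-34a arrays. The vector arrays agree within 0.05 log2 units, and miR-34a 2 lay just below them while miR-34a 1 and miR-34a 3 were high. The change of 0.69 ± 0.299 (SE; limma adjusted p = 0.184) was 1.07 without miR-34a 2 (adjusted p = 0.0184) and 0.43 without miR-34a 3. The second Des probe set had a change of -0.0005. Myh11, the smooth muscle myosin, had 189, 172 and 189 in vector and 175, 203 and 178 in miR-34a arrays, a change of 0.01.

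**Figure D3:**
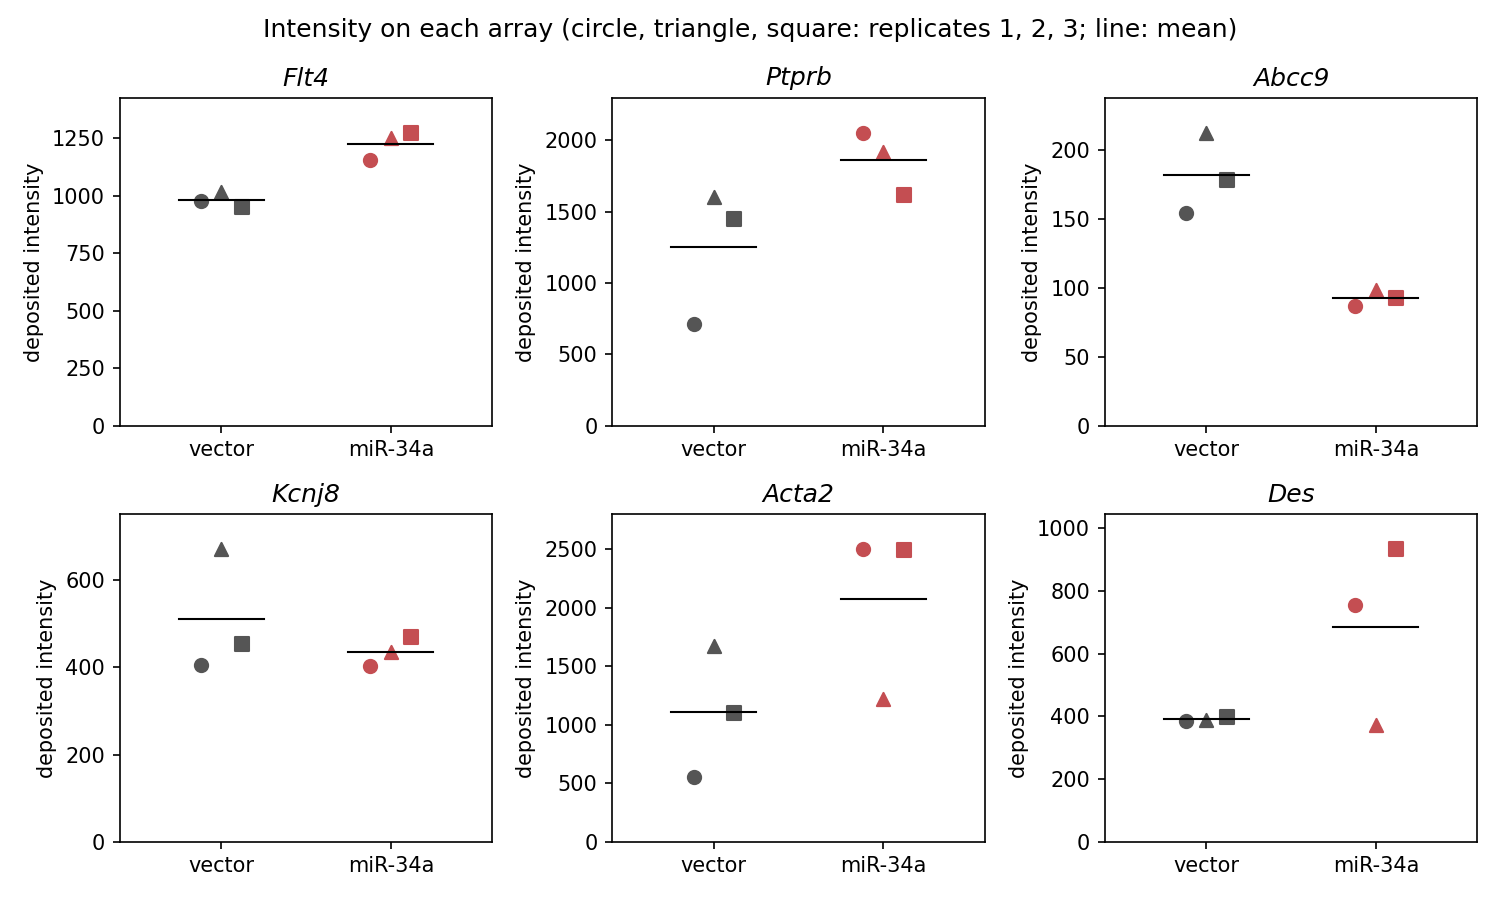
Deposited intensity on a linear axis from 0 for 6 genes, with a point per array (circle, triangle and square for replicates 1, 2 and 3) and a line at the group mean. Flt4 and Abcc9 separate the groups, Kcnj8 does not, Ptprb has vector 1 at 709 below all others, and Acta2 and Des are high on miR-34a 1 and miR-34a 3 with miR-34a 2 near the vector arrays.

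Of 10 skeletal muscle genes, 9 lay above every vector array on both miR-34a 1 and miR-34a 3, Pvalb being the exception, and 2 did so on miR-34a 2. That pair of arrays was not fixed before the values were seen, and the share of all genes with this pattern was not counted. Myh4 was among the 9 by a small margin, 28.9 on miR-34a 3 against 28.68 on vector 1. The miR-34a values all lay above the vector values in 2 of the 10 genes, against 20.8% of all genes. The skeletal muscle actin gene Acta1, singled out after its values were seen, had 214, 177 and 583 in vector and 1486, 169 and 2617 in miR-34a arrays, miR-34a 1 and miR-34a 3 being high as they were for Des and Acta2. The summed intensity of 10 skeletal muscle genes was 2178 to 2789 in vector and 4363, 2337 and 6546 in miR-34a arrays, and without Acta1 2002 to 2206 in vector and 2877, 2168 and 3929 in miR-34a arrays. Of these 10 genes 0 passed (limma; 3 had an unadjusted p under 0.05), and 10 of 10 had a change above 0. Among all genes 11.7% passed, 28.2% had an unadjusted limma p under 0.05 and 54.3% had a change above 0. Of 14 further genes of smooth muscle contraction 1 passed, Myocd, the coactivator of serum response factor. Myocd had 156, 188 and 182 in vector and 249.8, 227 and 224 in miR-34a arrays, a change of 0.38 ± 0.0967 (SE; limma adjusted p = 0.0462) that did not pass in any of the 6 fits without 1 array (0.0512 to 0.155). The part of skeletal muscle RNA in the values of Des and Acta2 was not tested.

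Vector 1 was the lowest array for 12 of the 25 endothelial genes and 3 of the 9 mural genes, and for 21.6% of all genes. It lay more than 1 log2 unit below the mean of the other vector arrays for Flt1, Vwf, Ptprb and Acta2, that is 12% of the endothelial and 11.1% of the mural genes, against 2.74% of all genes. The endothelial genes summed to 12755 on vector 1, to 18142 and 15103 on the other vector arrays and to 17312 to 17600 on the miR-34a arrays. The mural genes summed to 3474, 5837 and 4276 in vector and to 6020.0, 4131 and 6237 in miR-34a arrays. The 12 fibroblast genes summed to 18260.0 on vector 1, 54358 and 43967 on the other vector arrays and 46169 to 62901 on the miR-34a arrays. The macrophage genes summed to 11729 on vector 1, 20740.0 and 19209 on the other vector arrays and 21165 to 24918 on the miR-34a arrays. Such sums weigh bright genes most. Gene by gene, the deviation of vector 1 from the mean of the 6 arrays was taken on the log2 scale. Its median was -0.09 over the endothelial and -0.09 over the mural genes, against 0.03 over all genes. Over the fibroblast genes it was -1.52 and over the macrophage genes -0.76. The lowest value was 75.8 for a fibroblast and 91.9 for a macrophage gene, where the lowest in the whole table was 1. Of the fibroblast genes 10 of 12, and of the macrophage genes 7 of 12, lay above the median level of all genes. The 8 tumour line genes summed to 78708 to 80254 in vector and 81824 to 86392 in miR-34a arrays. Krt8, Krt18, Vim and Cdh1 make up most of that sum, and gene by gene vector 1 was the lowest array for 4 of the 8, Zeb1, Vim, Cdh1 and Epcam, with Epcam at 305 against 977 and 1463 on the other vector arrays.

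Over all 6 arrays 11.7% of all genes passed, 6.5% as higher and 5.25% as lower, and the median change of all genes was 0.024. Lists of other cells gave these counts. Of the 12 fibroblast genes 1 was higher, the surface glycoprotein gene Thy1 at 1.73 (limma adjusted p = 0.0309), with a list median of 0.76. Of the 12 macrophage genes the complement gene C1qb at 1.13 and the Fc receptor gene Fcgr1 at 0.98 were higher and the mannose receptor gene Mrc1 at -0.99 was lower, with a list median of 0.40. Mrc1 passed in all 6 fits without 1 array, Thy1 and Fcgr1 in 2 of them and C1qb in 1. Of 7 blood cell genes measured of 9, 0 passed (limma; 1 had an unadjusted p under 0.05). Without vector 1 the median change was 0.03 over the mural, 0.15 over the fibroblast and 0.21 over the macrophage genes. In that fit the called members were again Flt4 and Abcc9, where 17.2% of all genes passed, 10.1% as higher and 7.15% as lower. The part of other cell types in the low values of vector 1 was not tested.

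**Figure D4:**
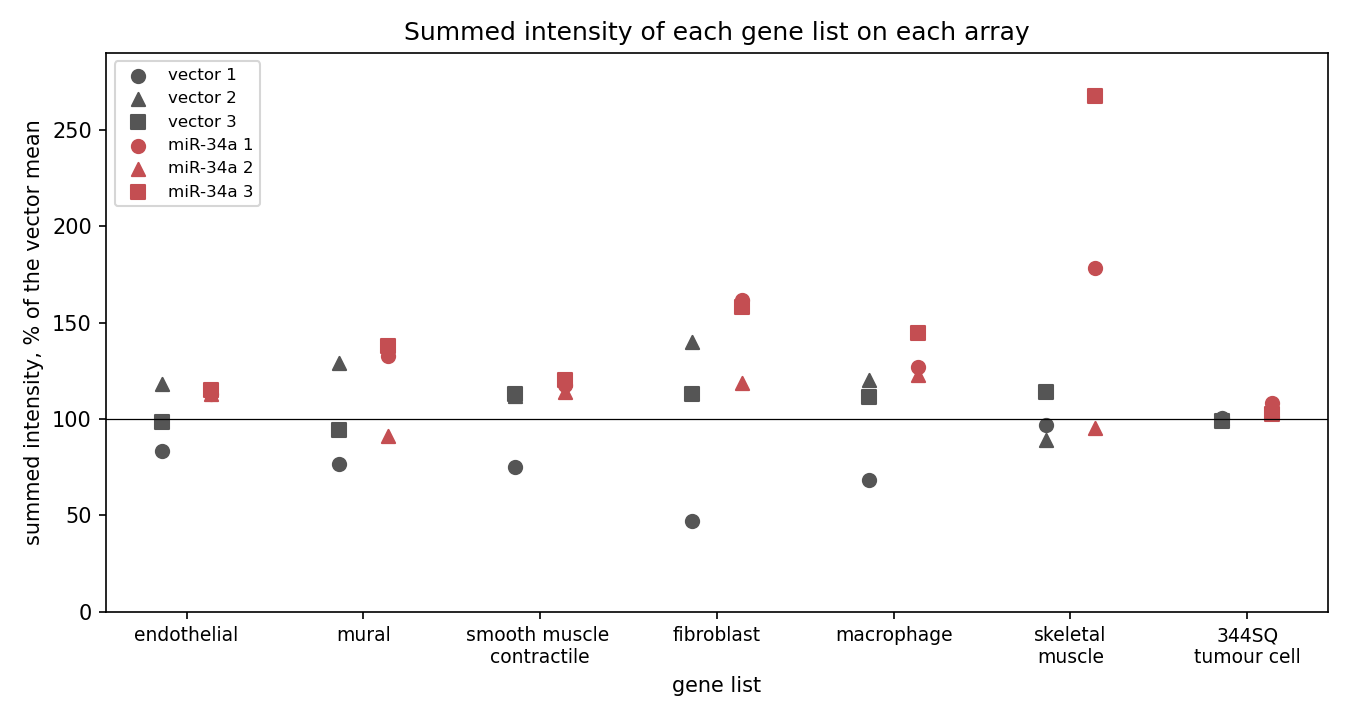
Summed intensity of each gene list on each array as a percentage of the mean of the 3 vector arrays, on an axis from 0, with the symbols of the replicates as before. Vector 1 is the lowest array of the endothelial, mural, smooth muscle, fibroblast and macrophage lists, and miR-34a 1 and miR-34a 3 stand high in the skeletal muscle list while miR-34a 2 does not.

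Ligands and partners of these receptors were read from a list of 35 genes, all measured. Of these 1 passed as higher, Ephb4, the venous receptor for ephrin-B2, and 1 as lower, Adm, the adrenomedullin peptide whose receptor includes Ramp2. Among all genes 6.5% passed as higher and 5.25% as lower. Ephb4 had 714, 819 and 658 in vector and 1105, 1092 and 1264 in miR-34a arrays. The groups were well apart, with a change of 0.65 ± 0.109 (SE; limma adjusted p = 0.0152), which missed the threshold when miR-34a 1 (0.064) or miR-34a 3 (0.0759) was left out. Adm had 1879, 922 and 701 in vector and 341, 375 and 369 in miR-34a arrays. Vector 1 was the highest, and the change of -1.52 (limma adjusted p = 0.0282) was -1.12 without it, with an adjusted p of 0.00216; the adjusted p was 0.0815 to 0.108 when a miR-34a array was left out. The list as a whole had a median of 0.06, with 20 genes above 0 and 15 below, where 54.3% of all genes lay above 0. The miR-34a values all lay above the vector values in 8 genes and all below in 4. That is 12 of 35 without overlap, against 34.9% of all genes. Nrp1, singled out after its values were seen, had a change of 1.05 with no overlap (limma adjusted p = 0.0956), which was 0.61 without vector 1.

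Ligands of the VEGF receptors did not pass over all 6 arrays. Pgf, the placental growth factor that binds Flt1, had 346.5, 722 and 716 in vector and 1012, 1199 and 1183 in miR-34a arrays, every miR-34a value above every vector value and a change of 0.98 ± 0.271 (SE; limma adjusted p = 0.0604). Without vector 1 its change was 0.64 with an adjusted p of 0.00642. Vegfc, the ligand of Flt4, had 71.4, 154 and 142 in vector and 232, 198 and 281 in miR-34a arrays, a change of 0.92 (limma adjusted p = 0.0641). Vegfd, another Flt4 ligand, differed by 0.53 (limma adjusted p = 0.0665). Vegfc, Vegfd, Vegfb and Pdgfb were singled out after their values were seen. Vegfb, a ligand of Flt1, had 1373, 1131 and 1108 in vector and 1021, 971 and 1049.9 in miR-34a arrays, all below the vector values, with a change of -0.24 (limma adjusted p = 0.187). Vegfa itself had 2245, 3159 and 3050.5 against 2414, 2176 and 2879.7, with overlapping groups and a change of -0.17 whose interval ran from -0.55 to 0.21. Without vector 1, 7 genes of the list passed as higher and 4 as lower, in the fit where all genes passed at 10.1% and 7.15%.

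Vector 1 was the lowest array for 18 of the 35 ligand and partner genes and for 21.6% of all genes. Cdh5, Cd93, Notch4, Fli1, Pdgfrb and Pdgfb were among the 18. Icam2 and Acvrl1, also of endothelium, were slightly higher on vector 1 than on the other vector arrays. Icam2 had 269 against 237 and 263, and Acvrl1 had 221 against 200 and 210. Cdh5, VE-cadherin of endothelial junctions, had 822, 1893 and 1209 in vector and 1227, 1136 and 1220.4 in miR-34a arrays, and its change of -0.05 had an interval from -0.68 to 0.58. Pdgfrb, the receptor through which endothelium recruits pericytes, had 1191, 3964 and 2211 in vector and 3483, 2660.3 and 3505 in miR-34a arrays. Its vector arrays enclosed the miR-34a arrays, and the change of 0.54 was 0.11 without vector 1. Pdgfb, the ligand of that receptor, had 606, 889 and 812 against 1026, 1111 and 1195, with no overlap and a change of 0.54 (limma adjusted p = 0.0604).

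Different probe sets of a member did not always give the same value. The 34 members had 52 probe sets of their own, 13 members had several, and in 7 of these the changes had both signs. The probe sets of Acta2, Des and Flt1 differed by more than 0.5 in their changes. Of the 18 probe sets other than the brightest, 0 passed in a fit over all probe sets, where 13.7% of probe sets passed (limma; 3 of the 18 had an unadjusted p under 0.05).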

How the data were processed

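The authors deposited 1 table of linear intensities for 22690 probe sets on 6 arrays; per the labels' protocols, biotinylated cRNA of total RNA was hybridised to Affymetrix mouse arrays. How they were summarised and normalized is not given in the sources used here. The deposited intensity medians were 466.7 to 484.2, so values were used as scaled. The table holds fewer probe sets than the array model named in the design text would carry, and rows not in it are not analysed here. A platform annotation gave 20393 probe sets 1 symbol, 691 several and 1606 none; 20364 symbols were updated through Entrez IDs to GRCm38.p6 and 29 were kept. Of 20380 named probe sets, the one with the highest mean of log2(intensity + 16) stood for each of 12393 genes. Groups came from the sample titles and descriptions, 3 arrays each, and that number limits the precision.

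Groups were compared with limma 3.58.1 in R 4.3.3 (lmFit and eBayes, no trend), with Benjamini-Hochberg adjustment over all genes at 0.05 and 95% intervals. The code was tested on simulated data. Figures were drawn with Python 3.11.15 and matplotlib 3.10.9. Every member is named, with values on each array where it passed, where its groups did not overlap or where its change was 0.5 or more in size; of every other list the genes that passed are named, and Cdh5, Pdgfrb, Vegfa and Pgf always. Members and lists were chosen with earlier results of these data known. Alternatives were quantile normalization, median centring, 1 or 64 added before the log, leaving out genes below the median level, the mean of all probe sets, a trend with robust variances, array weights, a replicate block and leaving out each array in turn.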

Additional observations from a re-analysis of the deposited data

How the results depend on the processing

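Over 15 alternatives to the analysis, the 34 members gave 490 values, of which 448 kept the direction and the side of the threshold, 11 lost a call, 8 gained one and 23 changed sign in genes that had no call; 0 turned the sign of a called change, and 15 members kept sign and side throughout. The 1456 genes called became 3238 with array weights, 522 with the replicate block and 226 to 2133 when 1 array was left out. The 1 endothelial gene called became 0 with 1 added before the log, 0 with a variance trend, 0 with the replicate block, 5 with array weights (Flt4, Tek, Emcn, Aplnr and Plvap) and 0 to 1 when 1 array was left out; without vector 2, and with the mean of all probe sets, it was Aplnr in place of Flt4. The 1 mural gene called became 0 when genes below the median level, Abcc9 among them, were left out, 2 with array weights and 0 to 2 when 1 array was left out, Des being the other gene. The 2 ligand and partner genes called became 5 without the genes below the median level, 10 with array weights, 0 with the replicate block and 0 to 11 when 1 array was left out, with 11 without vector 1. Of the 35 genes of that list 22 lay above the median level. Among all genes 11.7% were called in the main fit and 21.4% without the genes below that level. The share was 26.1% with array weights, 4.21% with the replicate block and 1.82% to 17.2% when 1 array was left out. Without the genes below the median level the median change was 0.20 for endothelial and 0.12 for mural members, against 0.11 and 0.01. The median of all genes kept in that fit was 0.06, against 0.02 in the main fit. What made these counts and medians differ between alternatives was not tested. Under the replicate block Abcc9 had a limma adjusted p of 0.029. Same-numbered arrays correlated at -0.17, -0.09 and -0.08 in their deviations from the group mean, and no array correlated best with its own number. With 3 arrays a group these correlations cannot tell whether same-numbered arrays were handled together. Array weights were estimated from the same arrays. With 3 arrays a group and no detection calls, small changes and dim genes such as Prox1 are least certain.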

Other observations

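Ramp2 has 2 further probe sets that the annotation also assigns to Vps25, and these were left out of the member values. The first had 1009, 956 and 1344 in vector and 1299, 1115 and 1187 in miR-34a arrays, with overlapping groups and a difference of 0.13 on the log2 scale. The second had 1767, 1856 and 2165 in vector and 2707, 2439 and 2402 in miR-34a arrays, with every miR-34a value higher and a difference of 0.38. The probe set for Ramp2 alone differed by 0.03, and which transcript the shared probe sets measure was not tested.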
